A study of Mus musculus with 6 samples.

Results

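Respiratory complex I is the NADH dehydrogenase of the mitochondrial inner membrane, and 35 of its nuclear subunit genes, chosen by symbol, were followed here among the 23282 rows of each count table. The RNA came from gastrocnemius muscle of 6 wild-type (WT) C57/BL6J male mice aged 20 months. Of these, 3 mice were given inotodiol, a triterpenoid of the chaga mushroom, by mouth at 0.35 mg/kg every day for 10 weeks, and 3 control mice were given a vehicle of 40% polyethylene glycol, 5% Tween 80 and 0.9% saline. The title of the study places the comparison in muscle wasting of old age and mitochondrial function, and no young mice were part of the data analysed here. All 35 genes passed the filter on low counts, so no member was lost to it.

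Complex I takes electrons from NADH, hands them through flavin and iron-sulfur clusters to ubiquinone, and pumps protons across the membrane. Its N module holds the NADH site, its Q module the ubiquinone site, and its membrane arm the pumps. Core subunits are those kept from bacteria, which carry the cofactors and catalytic sites; accessory subunits surround them and are needed for assembly and stability. The core subunits of the membrane arm are encoded in mitochondrial DNA, so the nuclear genes of that arm are all accessory. Skeletal muscle has a high demand for the complex, and oxidative fibres hold more mitochondria than glycolytic ones. Of the 35 genes, 6 encode core subunits of the N and Q modules and 29 encode accessory subunits.

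No gene of complex I passed edgeR's quasi-likelihood test between inotodiol and vehicle muscle, where the smallest adjusted p of a member was 0.96 and 0% of the 11700 genes tested were called. At an unadjusted p under 0.05 there were 4 members of 35, all higher with inotodiol, a share of 11.4% where 4.87% of all genes tested passed in either direction and 2.67% passed with a higher value under inotodiol. DESeq2 and limma-voom called 0 members too, with the same 4 members at an unadjusted p under 0.05. The members nevertheless lay mostly on one side. Log2 fold changes were above 0 for 29 of 35 members, where 49.9% of all genes were above 0, and their median was 0.15, a fold of 1.11, against a median of -0.00073 over all genes. These sizes hold on the scale of TMM, the scaling of library totals that assumes most genes are equal. With library totals alone the median of all genes moved to -0.12 and that of complex I to 0.038, still 0.16 above all genes.

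The 3 inotodiol libraries did not overlap the 3 vehicle libraries for 13 members of 35 (37.1%), where 10.4% of all genes did not overlap. Of these members, 12 lay higher with inotodiol (background 5.15%) and 1 lay lower (background 5.26%). The 12 were Ndufv1, Ndufv2, Ndufs3, Ndufs8, Ndufa2, Ndufa5, Ndufa6, Ndufa11, Ndufa13, Ndufb4, Ndufs5 and Ndufs6, and the gene that lay lower was Ndufa1. With library totals alone 4 members of 35 did not overlap, a share near the background of 12.5%: Ndufa5 higher with inotodiol and Ndufa1, Ndufb3 and Ndufab1 lower. Ndufa5 and Ndufa1 were on both lists, but with a count near the background this does not set them apart from other genes.

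The promoters of the 4 members with the smallest p, Ndufv1, Ndufa5, Ndufb4 and Ndufa11, and of Ndufa1 are shown because these genes lead the comparison in each direction. Each is the 250 bases before the RefSeq start of the gene (GRCm38.p6), 5′ to 3′ on the strand of the gene, and for Ndufa5, which has several starts, the window of the start farthest upstream. Capitals mark matches on either strand to CGCATGCGC (the motif of NRF1, nuclear respiratory factor 1), CCGGAAG (ETS factors such as GABPA), AAGGTCA (the estrogen-related receptors), AAGATGGC (YY1) and TGACGTCA (cyclic AMP response element).
Ndufv1, chr19:4012756-4013005, - strand: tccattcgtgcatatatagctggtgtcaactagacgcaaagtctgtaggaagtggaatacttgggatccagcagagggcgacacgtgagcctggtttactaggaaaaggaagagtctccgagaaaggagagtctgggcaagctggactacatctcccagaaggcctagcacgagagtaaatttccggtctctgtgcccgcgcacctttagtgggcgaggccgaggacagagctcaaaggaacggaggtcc
Ndufa5, chr6:24527691-24527940, - strand: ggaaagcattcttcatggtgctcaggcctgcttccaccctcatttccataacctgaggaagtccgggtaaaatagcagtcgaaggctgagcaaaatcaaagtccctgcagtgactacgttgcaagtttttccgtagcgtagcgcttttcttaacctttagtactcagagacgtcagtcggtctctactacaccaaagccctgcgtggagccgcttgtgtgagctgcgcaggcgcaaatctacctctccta
Ndufb4, chr16:37654369-37654618, - strand: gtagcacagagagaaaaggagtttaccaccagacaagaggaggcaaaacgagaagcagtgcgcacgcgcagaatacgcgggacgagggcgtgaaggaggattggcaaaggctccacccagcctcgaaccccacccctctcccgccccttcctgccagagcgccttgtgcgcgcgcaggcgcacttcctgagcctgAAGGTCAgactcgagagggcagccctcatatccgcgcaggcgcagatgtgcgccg
Ndufa11, chr17:56717512-56717761, + strand: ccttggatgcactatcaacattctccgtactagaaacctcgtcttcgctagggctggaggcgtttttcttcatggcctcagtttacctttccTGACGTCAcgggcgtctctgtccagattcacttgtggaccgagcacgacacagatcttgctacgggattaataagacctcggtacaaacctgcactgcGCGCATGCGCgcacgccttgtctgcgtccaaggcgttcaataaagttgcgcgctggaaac
Ndufa1, chrX:37191239-37191488, - strand: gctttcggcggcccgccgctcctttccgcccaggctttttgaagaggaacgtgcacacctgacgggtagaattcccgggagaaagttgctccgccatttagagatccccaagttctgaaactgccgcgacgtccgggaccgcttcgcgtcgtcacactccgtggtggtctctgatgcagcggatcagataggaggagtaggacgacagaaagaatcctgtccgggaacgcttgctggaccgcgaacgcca

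The Ndufa11 window held a match to the NRF1 motif, read on both strands, and one to the cyclic AMP motif, the Ndufb4 window held a match to AAGGTCA, and the windows of Ndufv1, Ndufa5 and Ndufa1 held none of these letters. Promoter windows were matched for 32 members. CGCATGCGC was found in 2 of them, Ndufa11 and Ndufa8 (6.25%), and in 1.64% of all 27025 genes with a window. TGACGTCA was found in 3, Ndufa10, Ndufa11 and Ndufb2 (9.38%, all genes 1.77%), and AAGGTCA in 3, Ndufb2, Ndufb4 and Ndufs5 (9.38%, all genes 4.70%). CCGGAAG was found in 3, Ndufb6, Ndufb7 and Ndufs3 (9.38%, all genes 7.83%). No member window held AAGATGGC (all genes 1.83%) or the direct repeat bound by liver X receptors, AGGTCA repeated after a spacer of 4 bases (all genes 0.0148%). Matches to different capitalised motifs overlapped in 0 cases, although that repeat and AAGGTCA share the letters AGGTCA. Also counted were GGGGCGGGG (4 members, 12.5%, all genes 11.8%), TATAAA (4 members, 12.5%, all genes 14.3%) and CCAAT (10 members, 31.25%, all genes 37.5%). The median GC content was 57.8% over member windows and 52.4% over all windows, and the shares were not matched for it. The motif matches describe the letters alone, and no binding was measured.

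The N module holds the site where NADH is oxidised. Ndufv1 (chromosome 19, 4007384 to 4012806, GRCm38) encodes the core subunit that binds NADH and the flavin. It had 452, 407 and 548 CPM in inotodiol mice 1 to 3, against 386, 369 and 352 CPM in vehicle mice 1 to 3. All inotodiol values lay above all vehicle values, with mouse 3 far above the other inotodiol mice. The log2 fold change was 0.35 ± 0.13 (SE, 95% interval 0.06 to 0.63), with unadjusted p = 0.021 and an adjusted p of 0.96 in edgeR, and it was 0.22 without inotodiol replicate 3. Ndufv2, the partner core subunit with an iron-sulfur cluster, had 339, 353 and 359.9 CPM in inotodiol mice 1 to 3, against 321, 334 and 311 CPM in vehicle mice 1 to 3. These groups did not overlap but came close, at 339 CPM in inotodiol mouse 1 against 334 CPM in vehicle mouse 2, and the log2 fold change was 0.12 ± 0.12 (SE, 95% interval -0.13 to 0.37). Ndufs1, the large core subunit that carries further iron-sulfur clusters, had 219.8, 229 and 241 CPM in inotodiol mice 1 to 3, against 244, 209 and 202 CPM in vehicle mice 1 to 3. Here vehicle mouse 1 was the highest of all 6, and the log2 fold change was 0.075 ± 0.13 (SE, 95% interval -0.20 to 0.35), turning to -0.042 with library totals.

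Among the 7 accessory genes of the N module, 6 had a log2 fold change above 0. Ndufa6, which anchors an acyl carrier protein to the complex, had 401, 437 and 415 CPM in inotodiol mice 1 to 3, against 365, 365 and 385 CPM in vehicle mice 1 to 3. Its groups did not overlap, at a log2 fold change of 0.17 ± 0.11 (SE, 95% interval -0.077 to 0.42). Ndufa2 and Ndufs6, a zinc-binding subunit, were likewise parted, at log2 fold changes of 0.15 and 0.15. Ndufa2 had the narrowest spread of the inotodiol group, 462 ± 3.29 CPM with inotodiol and 418 ± 12.7 CPM with vehicle (SD, n = 3 each). Ndufa7, Ndufv3 and Ndufa12 stood at 0.19, 0.18 and 0.15 with groups that overlapped, Ndufa7 at 0.069 without inotodiol replicate 3. Ndufs4, whose loss in mice gives a Leigh-like encephalopathy, was the 1 N module gene below 0. It had 158, 159 and 172 CPM in inotodiol mice 1 to 3, against 163, 178 and 158 CPM in vehicle mice 1 to 3, so its groups overlapped throughout.

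The Q module joins the N module to the membrane and holds the ubiquinone site. Ndufs7 encodes the core subunit with the last iron-sulfur cluster before ubiquinone, and it had 233, 214 and 267 CPM in inotodiol mice 1 to 3, against 215, 191 and 214 CPM in vehicle mice 1 to 3. Inotodiol mouse 2 lay within the vehicle range, and the log2 fold change was 0.20 ± 0.13 (SE, 95% interval -0.079 to 0.49), or 0.11 without inotodiol replicate 3. Ndufs8, another iron-sulfur core subunit, had 154, 138 and 142 CPM in inotodiol mice 1 to 3, against 108, 124 and 129.7 CPM in vehicle mice 1 to 3. All inotodiol values were above all vehicle values, and vehicle mouse 1 was the lowest, at a log2 fold change of 0.26 ± 0.13 (SE, 95% interval -0.028 to 0.55). Ndufs3, a core subunit at the same junction, had 141, 141 and 158 CPM in inotodiol mice 1 to 3, against 127, 132 and 116 CPM in vehicle mice 1 to 3. Its groups did not overlap either, at a log2 fold change of 0.23 ± 0.13 (SE, 95% interval -0.051 to 0.52), though a processed pseudogene matches 792 bases of its transcript at 98.6% identity and the counts may mix with it.

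Ndufa5 (chromosome 6, 24518666 to 24528013), an accessory subunit of the Q module, had 574, 558 and 612 CPM in inotodiol mice 1 to 3, against 442, 515 and 454 CPM in vehicle mice 1 to 3. The lowest inotodiol mouse stood above the highest vehicle mouse. The log2 fold change was 0.31 ± 0.12 (SE, 95% interval 0.052 to 0.56), with unadjusted p = 0.022 and an adjusted p of 0.96 in edgeR. It ranged from 0.26 to 0.38 when single libraries were left out and was 0.19 with library totals. Ndufa9, the accessory subunit of this module that binds a nicotinamide nucleotide, had 154, 144 and 133 CPM in inotodiol mice 1 to 3, against 134, 167 and 124 CPM in vehicle mice 1 to 3. Vehicle mouse 2 was the highest and vehicle mouse 3 the lowest of all, and the log2 fold change of 0.021 ± 0.15 (SE, 95% interval -0.29 to 0.34) changed sign in several of the alternatives.

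**Figure D1:**
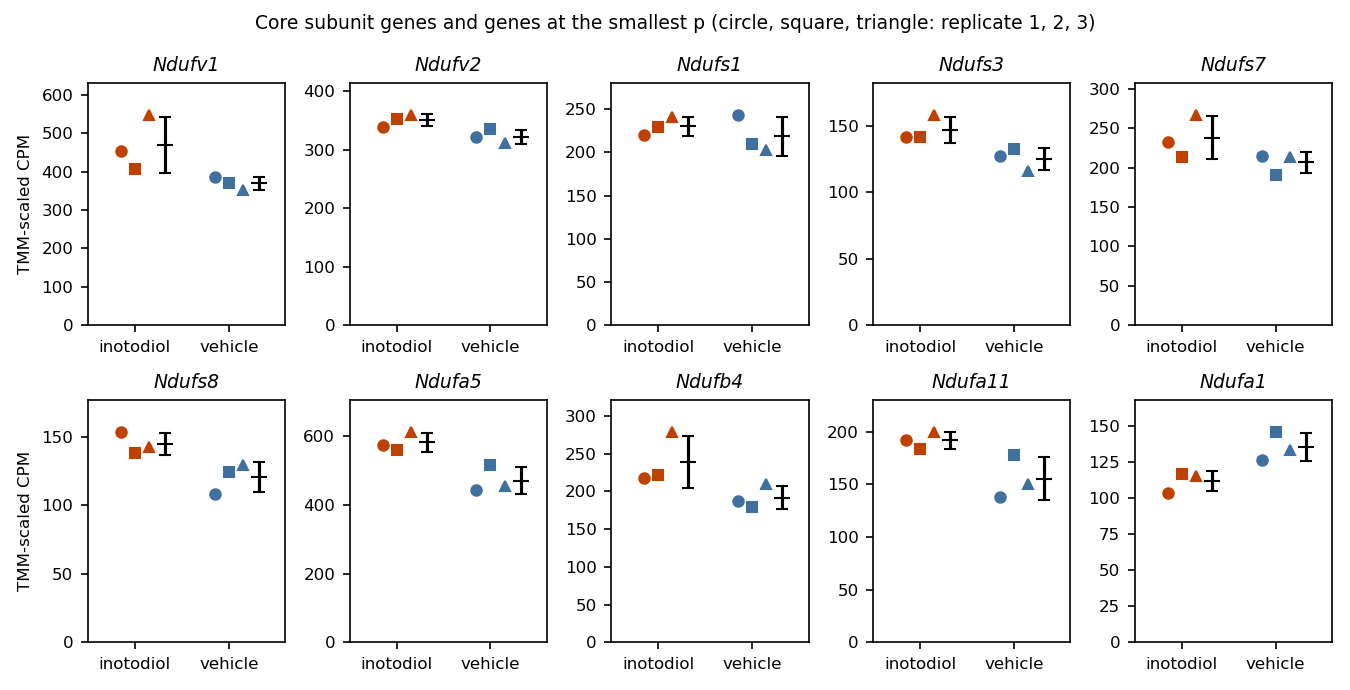
TMM-scaled CPM of the 6 core subunit genes, the 4 genes with the smallest p and Ndufa1 (Ndufv1 is in both sets), for 3 inotodiol and 3 vehicle mice; symbols are single mice, and bars show the mean and SD. Inotodiol mouse 3 is the highest in Ndufv1, Ndufv2, Ndufs3, Ndufs7, Ndufa5, Ndufb4 and Ndufa11, and Ndufa1 alone has all inotodiol values below the vehicle values.

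The proximal membrane arm is the part of the pump next to the Q module, and 6 of its 9 accessory genes had a log2 fold change above 0. Ndufa11 (chromosome 17, 56717767 to 56722141), a membrane subunit at the contact with complex III, had 193, 184 and 199.9 CPM in inotodiol mice 1 to 3, against 138, 178 and 151 CPM in vehicle mice 1 to 3. The groups were parted by little, at 184 CPM in inotodiol mouse 2 against 178 CPM in vehicle mouse 2. Ndufa11 shares 6.41% of its exonic bases with Vmac on the opposite strand. The log2 fold change was 0.30 ± 0.14 (SE, 95% interval 0.012 to 0.60), with unadjusted p = 0.043 and an adjusted p of 0.96 in edgeR. Ndufa13, also known as GRIM-19, had 395, 343 and 409.9 CPM in inotodiol mice 1 to 3, against 329, 311 and 332 CPM in vehicle mice 1 to 3. Its groups did not overlap, at a log2 fold change of 0.24 ± 0.12 (SE, 95% interval -0.023 to 0.50), but 30.0% of its exonic bases are shared with Tssk6 on the opposite strand. Ndufa3 had 227, 216 and 312 CPM in inotodiol mice 1 to 3, against 230.2, 181 and 218 CPM in vehicle mice 1 to 3. Inotodiol mouse 3 stood apart from the other 5 mice in this gene, and the log2 fold change was 0.26 ± 0.16 (SE, 95% interval -0.078 to 0.61), or 0.079 without that mouse. Ndufa10, a subunit related to nucleoside kinases, had 353, 302 and 306 CPM in inotodiol mice 1 to 3, against 225, 304 and 298 CPM in vehicle mice 1 to 3. Vehicle mouse 1 lay below all others, and without it the log2 fold change of 0.22 ± 0.14 (SE, 95% interval -0.087 to 0.52) was 0.092. Ndufs5 and Ndufc1 stood at 0.16 and 0.15, Ndufc1 at 0.033 without inotodiol replicate 3.

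Ndufa1 (X chromosome, 37187588 to 37191163), a small membrane subunit without which hamster cells fail to assemble complex I, stood lower with inotodiol. It had 103, 117 and 115 CPM in inotodiol mice 1 to 3, against 126, 146 and 133 CPM in vehicle mice 1 to 3. All inotodiol values lay below all vehicle values. The log2 fold change was -0.28 ± 0.13 (SE, 95% interval -0.56 to 0.011), with unadjusted p = 0.058 and an adjusted p of 0.96 in edgeR, and it stayed between -0.39 and -0.21 over all alternatives. With library totals it was the 1 member at an unadjusted p under 0.05, as were 6.21% of all genes. Ndufb11, the other X-linked member, stood at 0.19, with groups that overlapped. Ndufa8 and Ndufc2 of the proximal arm were also below 0, at -0.12 and -0.02, and their groups overlapped.

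The distal membrane arm ends in the pump farthest from the Q module, and 9 of its 10 accessory genes stood higher with inotodiol, at a median log2 fold change of 0.15. Ndufb4 (chromosome 16, 37647170 to 37654453) had 218, 221 and 279 CPM in inotodiol mice 1 to 3, against 187, 179 and 209 CPM in vehicle mice 1 to 3. It was the 1 gene of this arm whose groups did not overlap. Its log2 fold change was 0.32 ± 0.14 (SE, 95% interval 0.02 to 0.62), with unadjusted p = 0.038 and an adjusted p of 0.96 in edgeR, and it was 0.19 without inotodiol replicate 3. A processed pseudogene, Ndufb4c, matches 390 bases of its transcript at 100% identity, so its count may hold reads of that copy. Ndufb7, Ndufb8, Ndufb9 and Ndufb10 stood at 0.19, 0.14, 0.14 and 0.16, and Ndufb2, Ndufb5 and Ndufb6 at 0.15, 0.065 and 0.12. Ndufb3 was the exception, with 236, 354 and 292 CPM in inotodiol mice 1 to 3, against 317, 343 and 321 CPM in vehicle mice 1 to 3. Inotodiol mouse 1 was the low value and inotodiol mouse 2 the highest of all, and the log2 fold change was -0.15 ± 0.15 (SE, 95% interval -0.47 to 0.16), or -0.017 without inotodiol replicate 1.

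Ndufab1, the mitochondrial acyl carrier protein, sits in the complex in both the matrix and the membrane arm and also serves fatty acid synthesis. It had 123, 208 and 189 counts in inotodiol mice 1 to 3, against 193, 201 and 262 counts in vehicle mice 1 to 3, and was the member with the fewest counts. Inotodiol mouse 1 lay below the other 5 mice. The log2 fold change was -0.28 ± 0.23 (SE, 95% interval -0.78 to 0.22), the widest interval of the list, and was -0.09 without inotodiol replicate 1. Processed pseudogenes match part of its transcript at 99.4% and 99.8% identity. Of the 6 members below 0 (Ndufa1, Ndufab1, Ndufb3, Ndufa8, Ndufs4 and Ndufc2), 5 had their lowest value in inotodiol mouse 1. Picking genes that lie lower with inotodiol itself favours a lowest value in that group.

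**Figure D2:**
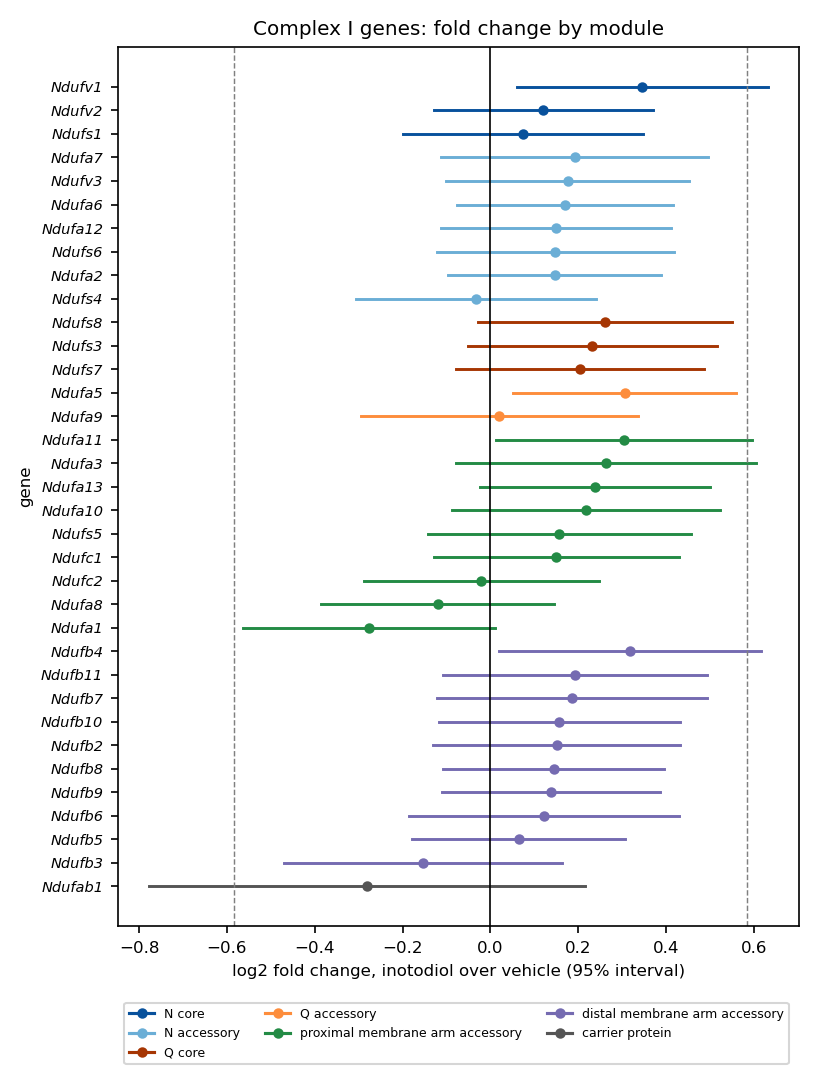
Log2 fold change of inotodiol over vehicle for the 35 complex I genes, ordered by module, with 95% intervals from edgeR's quasi-likelihood fit; dashed lines mark 1.5-fold in either direction. Most points lie between 0 and 0.35, 4 intervals lie above 0, and the intervals of Ndufv1, Ndufb4, Ndufa11, Ndufa3 and Ndufab1 cross a dashed line.

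The members varied less between mice than the median gene. The median standard error of their log2 fold changes was 0.13, against 0.28 over all genes, and the median biological coefficient of variation was 13.6% against 24.5%. For 30 of 35 members the 95% interval lay within 1.5-fold in both directions, as it did for 28.7% of all genes. The exceptions were Ndufv1, Ndufb4, Ndufa11 and Ndufa3, whose intervals reached up to 1.55-fold, and Ndufab1, whose interval reached down to a fold of 0.583. The members were well covered, and 34 of them had at least 669 counts in every library. Genes were not matched for coverage in this comparison. The trait is not particular to complex I. The 40 genes of complexes II to V had a median standard error of 0.13 and a median coefficient of variation of 13.5%, with 87.5% of intervals within 1.5-fold.

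By module, the medians were 0.15 for the 10 genes of the N module, 0.23 for the 5 of the Q module, 0.16 for the 9 of the proximal arm and 0.15 for the 10 of the distal arm. The Q module had 3 of 5 genes with groups that did not overlap, the N module 5 of 10, the proximal arm 4 of 9 (3 higher and 1 lower) and the distal arm 1 of 10. Over all genes the share was 10.4%, and the distal arm, at 10%, was near it. Among core subunits all 6 were above 0, with a median of 0.22, and 4 did not overlap (66.7%, all genes 10.4%). Among accessory subunits 23 of 29 were above 0, with a median of 0.15, and 9 did not overlap (31.0%). With library totals the core median was 0.10 and the accessory median 0.035.

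The mean level of the core genes, as log2 CPM relative to their mean over all libraries, was 0.078, 0.026 and 0.20 in inotodiol mice 1 to 3, against -0.076, -0.10 and -0.13 in vehicle mice 1 to 3. The mean level of the accessory genes was 0.016, 0.015 and 0.13 in inotodiol mice 1 to 3, against -0.085, -0.028 and -0.052 in vehicle mice 1 to 3. Both sets were highest in inotodiol mouse 3. The core level minus the accessory level was 0.062, 0.011 and 0.070 in inotodiol mice 1 to 3, against 0.0086, -0.073 and -0.079 in vehicle mice 1 to 3. The nearest values were 0.011 in inotodiol mouse 2 against 0.0086 in vehicle mouse 1, and whether core and accessory genes differed in their response was not tested.

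By library, 20 of 35 members had their highest value in inotodiol mouse 3 (background 19.7%), 5 in inotodiol mouse 1 (16.2%) and 3 in inotodiol mouse 2 (15%). In the vehicle group 1 member peaked in mouse 1 (17.6%), 5 in mouse 2 (15.7%) and 1 in mouse 3 (15.8%). The lowest value fell in a vehicle library for 30 members, 11 in mouse 1 (background 17.7%), 7 in mouse 2 (16.3%) and 12 in mouse 3 (15.3%). The remaining 5 were lowest in inotodiol mouse 1 (17%). Members above their own mean numbered 26, 18 and 29 in inotodiol mice 1 to 3, against 10, 14 and 7 in vehicle mice 1 to 3, where between 51.4% and 52.6% of all genes were above their own mean in each library. Inotodiol mouse 2, with a median deviation of 0.00081, was close to the centre. Without inotodiol replicate 3 the median log2 fold change of the list was 0.11, with 29 of 35 members still above 0 and 1 at an unadjusted p under 0.05 (4.90% of all genes). Leaving out that mouse moved the log2 fold change by over 1.5 times in 17 of 35 members, against 4 to 8 members for each other library.

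**Figure D3:**
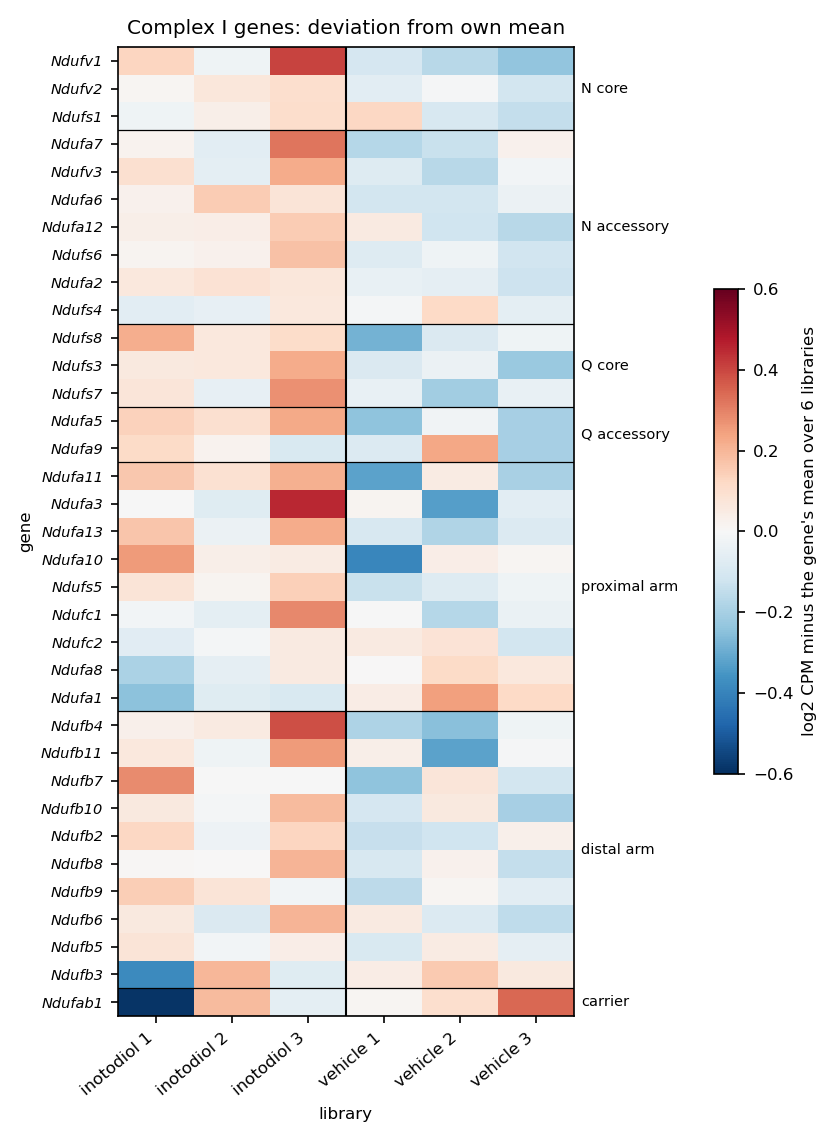
Log2 CPM of each of the 35 genes minus its own mean over the 6 libraries, with inotodiol mice to the left of the line and vehicle mice to the right, grouped by module. Inotodiol mouse 3 is red for 29 of 35 genes, and inotodiol mouse 1 holds the lowest cell of the map, Ndufab1 at -0.59.

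The scale of the libraries bears directly on these values. Libraries held 8961893 to 9953764 counts. Complex I genes took 0.900%, 0.885% and 1.07% of the counts in inotodiol mice 1 to 3, against 0.936%, 0.915% and 0.939% in vehicle mice 1 to 3, so inotodiol mice 1 and 2 were below all vehicle mice on this scale. Exact 95% binomial intervals, which cover counting error only, were 0.880% to 0.891% in inotodiol mouse 2 and 0.909% to 0.921% in vehicle mouse 2. Rn45s, the ribosomal RNA precursor, accounted for 10.2%, 9.56% and 4.33% of counts in inotodiol mice 1 to 3, against 3.97%, 6.82% and 4.38% in vehicle mice 1 to 3. Among the counts other than Rn45s the complex I share was 1.00%, 0.979% and 1.12% in inotodiol mice, against 0.975%, 0.982% and 0.983% in vehicle mice, so the groups then overlapped. After TMM scaling the summed level was 9905 ± 489 CPM with inotodiol and 8942 ± 164 CPM with vehicle (SD, n = 3 each), 9533 CPM in inotodiol mouse 2 against 9131 CPM in vehicle mouse 2 being the nearest values. That the inotodiol sum lies above the vehicle sum therefore depends on the scaling in inotodiol mice 1 and 2 and holds on each of the 3 scales in inotodiol mouse 3.

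**Figure D4:**
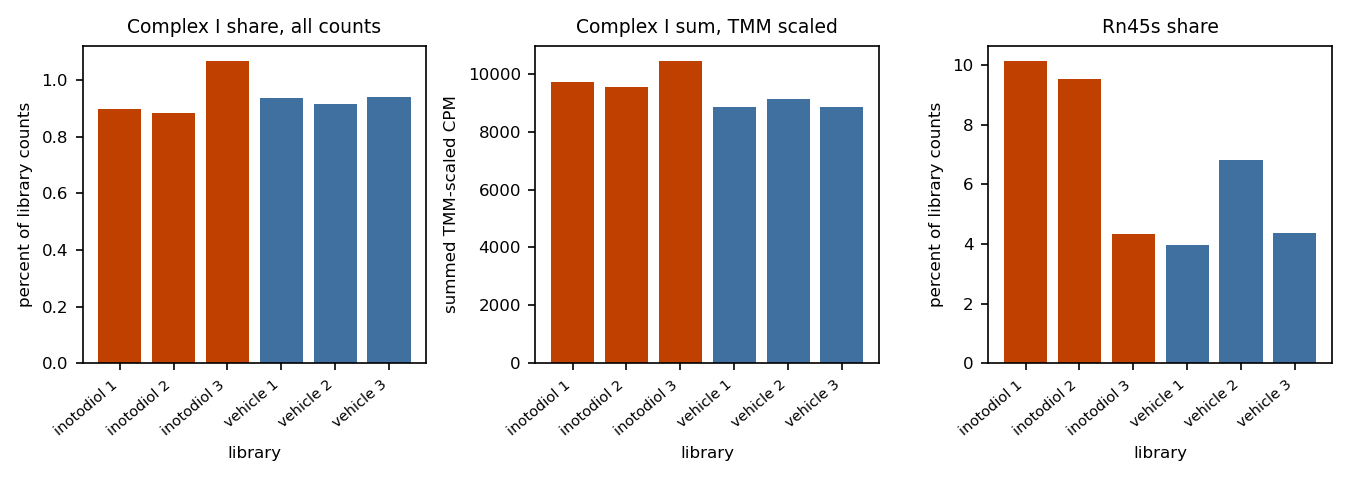
Complex I genes as a percent of all counts (left), as summed TMM-scaled CPM (middle), and Rn45s as a percent of all counts (right), for 3 inotodiol and 3 vehicle libraries. On the left inotodiol mice 1 and 2 are below every vehicle mouse, in the middle all inotodiol mice are above every vehicle mouse, and Rn45s is highest in inotodiol mice 1 and 2.

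Levels of different genes were set side by side as CPM per kilobase of merged exons, and then as CPM alone. On that scale Ndufa2 was the highest, at 808 with inotodiol and 730.4 with vehicle, followed by Ndufb9 at 621 and 564 and Ndufa5 at 563 and 456. The lowest were Ndufab1 at 2.70 and 3.28, Ndufb2 at 26.2 and 23.6, and Ndufs1 at 28.4 and 27.0, inotodiol and then vehicle in each case. As CPM alone the order was another. Ndufb8 was then the highest, at 724 CPM with inotodiol and 656 CPM with vehicle, Ndufa2 had 462 and 418 CPM, and Ndufs1 had 230 and 218 CPM. Whether the counts grow with transcript length under the Lexogen Quant-Seq kit was not tested, so the order of genes is uncertain.

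Annotation limits the reading of 19 members. By GENCODE M21, 13 share exonic bases with a gene on the opposite strand, and since the strand setting of the counts is not given in the sources used here, such reads cannot be told apart. The share was largest in Ndufb6 (39.0% of its exonic bases, with Smim27) and Ndufa13. The other members with such an overlap were Ndufa2 (11.5%, with Tmco6), Ndufa3, Ndufa9, Ndufa11, Ndufab1, Ndufb2, Ndufb5, Ndufb11, Ndufs1, Ndufs3 and Ndufs6. On the same strand, 3 members (Ndufb2, Ndufb8 and Ndufb9) share exonic bases with another annotated gene. Transcripts of 8 members match an annotated copy elsewhere over at least 200 bases at 95% identity or more: Ndufa12, Ndufab1, Ndufb3, Ndufb4, Ndufb11, Ndufs3, Ndufs5 and Ndufs6. Several members fall under more than 1 of these. Of the 16 members with none of them, 12 were above 0 with a median of 0.17, and 6 did not overlap (37.5%, all genes 10.4%), 5 higher and 1 lower.

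The other genes of the pathway described are the assembly factors, which build the complex and leave it. Of 22 listed, 17 matched a row and passed the filter, 13 of these stood higher with inotodiol, at a median log2 fold change of 0.099, or -0.022 with library totals. The median was 0.21 without inotodiol replicate 1, 0.21 without vehicle replicate 1, 0.16 without vehicle replicate 3 and 0.052 without inotodiol replicate 2. None was called by edgeR, and 2 of 17 had an unadjusted p under 0.05 (11.8%, all genes 4.87%). Aifm1, the apoptosis-inducing factor, which aids import of respiratory subunits, had 23.3, 22.3 and 20.7 CPM in inotodiol mice 1 to 3, against 17.5, 16.7 and 11.1 CPM in vehicle mice 1 to 3. Its groups did not overlap, at a log2 fold change of 0.55 ± 0.23 (SE, 95% interval 0.064 to 1.04). Lyrm2, tied to N module assembly in human cells, had 7.81, 11.7 and 19.4 CPM in inotodiol mice 1 to 3, against 6.74, 8.85 and 6.78 CPM in vehicle mice 1 to 3. Inotodiol mouse 3 was the high value, and the log2 fold change of 0.80 ± 0.34 (SE, 95% interval 0.071 to 1.52) was 0.38 without it. Ndufaf3, a Q module assembly factor, had 24.6, 19.3 and 22.4 CPM in inotodiol mice 1 to 3, against 17.5, 18.7 and 18.0 CPM in vehicle mice 1 to 3. Its groups did not overlap, at a log2 fold change of 0.29 ± 0.20 (SE, 95% interval -0.13 to 0.72). Tmem70, which serves ATP synthase and complex I, had 63.4, 72.5 and 71.4 CPM in inotodiol mice 1 to 3, against 95.4, 73.2 and 70.2 CPM in vehicle mice 1 to 3. Its groups overlapped and vehicle mouse 1 was the high value, and the log2 fold change of -0.20 ± 0.16 (SE, 95% interval -0.55 to 0.14) was -0.054 without it. Ndufaf2 and Ndufaf6 were the other factors whose groups did not overlap, at 0.31 and 0.26, so 4 of 17 did not overlap, all higher with inotodiol (23.5%, all genes 5.15%).

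The rest of the chain gave similar counts. Of 40 nuclear genes of complexes II to V, 32 were above 0 with a median of 0.17, 13 did not overlap, all higher with inotodiol (32.5%, all genes 5.15%), and 23 were highest in inotodiol mouse 3 (57.5%, all genes 19.7%). The difference between these genes and complex I was not tested.

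Markers of fibres and of other cells were read beside these values, since in whole muscle fewer cells of a type and less RNA per cell cannot be told apart. Genes that define muscle were abundant in both groups, with skeletal actin Acta1 at 43606 ± 1424 CPM with inotodiol and 43768 ± 906 CPM with vehicle, and muscle creatine kinase Ckm at 13327 ± 1085 and 13702 ± 862 CPM (SD, n = 3 each). Of the 6 muscle fibre markers, 4 were above 0 (Mb, Myh1, Myh4 and Tnnc2). Myoglobin, Mb, had 1910.4, 1697 and 1756 CPM in inotodiol mice 1 to 3, against 1474, 1637 and 1567 CPM in vehicle mice 1 to 3, so its groups did not overlap. As a share of library totals, without TMM scaling, the 6 markers summed to between 119324 and 119445 CPM with inotodiol. The vehicle sums lay between 122265 and 128946 CPM, so all inotodiol libraries were lower on that scale. With TMM scaling the mean level of the 6 markers was 0.096, 0.11 and -0.10 in inotodiol mice 1 to 3. In vehicle mice 1 to 3 it was -0.051, 0.017 and -0.065, so the groups overlapped on this measure. The 9 slow and oxidative fibre markers had 5 members above 0, and their mean level was 0.026, -0.055 and 0.10 in inotodiol mice 1 to 3, against 0.037, 0.19 and -0.30 in vehicle mice 1 to 3, so the groups overlapped. Hepatocyte markers, of which all 17 tested were above 0 and 15 had an unadjusted p under 0.05 with none called by edgeR, summed to 774, 317 and 159 CPM of the library totals in inotodiol mice 1 to 3, against 80.5, 129 and 98.8 in vehicle mice 1 to 3, with no listed marker at 0 in all libraries. Exocrine pancreas markers, none of which passed the filter, summed to 125, 0.721 and 0.734 CPM of the library totals in inotodiol mice 1 to 3, against 0.781, 2.92 and 1.88 in vehicle mice 1 to 3. Inotodiol mouse 1 was thus the highest library in both lists. Leaving the hepatocyte and pancreas genes out of the fit left the complex I median at 0.15. That fit drops only the rows of these genes and keeps 11683 of the 11700, with the members' own counts unchanged. It therefore cannot show what part such RNA has in the complex I values, which was not tested. Schwann cell markers, all 7 tested above 0, summed to 97.6, 99.4 and 205 CPM of the library totals in inotodiol mice 1 to 3, against 98.5, 74.8 and 107 in vehicle mice 1 to 3, highest in inotodiol mouse 3 as the complex I genes were. Fibroblast markers had 0 of 9 above 0 and summed to between 916 and 1192 CPM with inotodiol and between 1079 and 2082 CPM with vehicle. Erythroid markers had 7 of 7 above 0 (median log2 fold change 0.58) and summed to between 4377 and 13985 CPM with inotodiol and between 5611 and 7967 CPM with vehicle. Macrophage markers had 3 of 12 above 0 (median -0.48), and their sums ranged from 68.2 to 197 CPM with inotodiol and from 115 to 317 CPM with vehicle. Endothelial markers had 7 of 8 above 0 (median 0.20), and white adipocyte markers 2 of 7 (median -0.074). The sums of the Schwann, fibroblast, erythroid, macrophage, endothelial and white adipocyte lists overlapped between groups, and their part in the complex I values was not tested.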

How the data were processed

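RNA of gastrocnemius muscle from 3 inotodiol and 3 vehicle mice was made into libraries with the Lexogen Quant-Seq kit from total RNA, per the labels' protocols. The deposited values are whole-number counts per gene with no normalization, and per the submitters' processing notes Bowtie2, bedtools and the mm10 genome were used. Tool settings, gene annotation, strandedness and the handling of multi-mapped reads were not stated in the sources used here. Libraries held 8961893 to 9953764 counts. Each table had 23282 rows, and rows that repeat a symbol were 44. Genes were filtered with filterByExpr (minimum count 10, total 15), which kept 11700. Counts were scaled by TMM and tested with the quasi-likelihood test of edgeR 4.0.16 (R 4.3.3) with group as the sole term, and p-values were adjusted by Benjamini-Hochberg over all genes tested at 0.05. CPM are relative to the TMM-scaled library total unless said otherwise, and centred log2 CPM used a prior count of 2. The common biological coefficient of variation was 27.2%. Alternatives used DESeq2 1.42.0, limma 3.58.1, other scalings and filters, and single libraries left out. The script was tested on simulated data whose changes were far larger than those of the members, so that test does not cover changes of their size.

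Members were matched by symbol, and the members and gene lists were chosen with earlier results of these data known. The genes given in full were the 12 with the smallest p, the 6 core subunits and 4 assembly factors, and the rest were given by range, count or fold change; Ndufa2, Ndufa9, Ndufb3, Ndufs4 and Ndufab1 were given in more detail after their values were seen. Gene positions and overlaps came from GENCODE M21, and promoters from RefSeq (GRCm38.p6). The labels call the samples biological replicates, and their numbers name mice. Deviations of same-numbered libraries correlated at -0.081, 0.11 and 0.022, so the numbers were not taken as pairs.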

Additional observations from a re-analysis of the deposited data

How the results depend on the processing

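Of 702 fold changes of named genes over the alternatives, 12 changed sign, all in genes near 0. With library totals alone these were Ndufs1 (-0.042), Ndufa9 (-0.096) and Ndufb5 (-0.051), and with library totals after leaving out Rn45s, a setting chosen after seeing the data, Ndufa9 (-0.050) and Ndufb5 (-0.0069). With single libraries left out, the range was -0.074 to 0.028 for Ndufs4 (above 0 without vehicle replicate 2), -0.067 to 0.16 for Ndufa9 (below 0 without inotodiol replicate 1, vehicle replicate 1 or vehicle replicate 3) and -0.078 to 0.024 for Ndufc2 (above 0 without inotodiol replicate 1, vehicle replicate 1 or vehicle replicate 2). No member was called under any of the 19 alternatives, where the smallest adjusted p was 0.64 (edgeR, without inotodiol replicate 2).

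With library totals, members at an unadjusted p under 0.05 numbered 1 (6.21% of all genes), those whose groups did not overlap 4 (12.5% of all genes), and the median log2 fold changes were 0.038 for complex I, 0.10 for core and 0.035 for accessory genes. After also leaving out Rn45s these were 1 (5.29% of all genes), 4 (11.3% of all genes), 0.080, 0.15 and 0.079. Leaving out 1 library at a time gave 1 to 4 members at an unadjusted p under 0.05 (4.31% to 5.77% of all genes), with 1 without inotodiol replicate 3, vehicle replicate 1 or vehicle replicate 3. It gave 13 to 21 members whose groups did not overlap, with 21 without inotodiol replicate 2 (22.2% of all genes) and 20 without vehicle replicate 2 (21.2% of all genes), where the share of all genes lay between 19.5% and 22.2% with fewer libraries to part. The complex I median then ranged from 0.11 to 0.19, the core median from 0.14 to 0.27 and the accessory median from 0.099 to 0.19, the lowest core value being without inotodiol replicate 3. Single members moved by over 1.5 times for 22 of 35. Over all genes, calls numbered 95 with no filter and 1 with DESeq2, and 0 to 25 with 1 library left out, 25 being without inotodiol replicate 3. The causes were not tested.

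The replicate block, for numbers that were not taken as pairs, gave a complex I median of 0.15 with 4 members at an unadjusted p under 0.05 (5.17% of all genes) and 0 called. In deviations from the group means, inotodiol 2 correlated best with its own number, vehicle 2 (0.11). Inotodiol 1 did so with vehicle 3 (0.097) and inotodiol 3 with vehicle 1 (0.064). With 3 mice a group, the 95% intervals, before adjustment, lay within 1.5-fold in 30 of 35 members.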
